A study of Rattus norvegicus with 18 samples.

Results

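miR-361 is a microRNA (miRNA) gene whose hairpin gives rise to 2 mature miRNAs, rno-miR-361-5p from the 5′ side and rno-miR-361-3p from the 3′ side. Both were picked by name from the 753 miRNAs counted in rat dorsal root ganglia (DRG), and both passed the detection filter of more than 10 counts in at least 6 of 18 libraries, which 373 miRNAs passed. They were picked with the results of these samples known: rno-miR-361-3p was lower than in naive rats in both injured groups, with no call between the injured groups. The differences between groups given for miR-361 are therefore a description, and carry no test.

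The study measured small RNA in the C6 to C8 DRG, which hold the cell bodies of sensory neurons that serve the forelimb, from Lister hooded rats. Naive rats had no surgery and no vector (n = 6). The bPYX+GFP and bPYX+NT3 groups (n = 6 each) had a bilateral pyramidotomy (bPYX), which cuts the corticospinal tracts in the brainstem and leaves the DRG and their axons uncut. A day later the forelimb flexor muscles of one side were injected with an adeno-associated viral vector of serotype 1 (AAV1), which carried the human neurotrophin-3 (NT3) gene, encoding a growth factor for proprioceptive neurons, or the gene of green fluorescent protein (GFP), each under the CMV promoter, which is not specific to a cell type. DRG of the treated side were taken 10 weeks after injury and pooled per rat, so each library is 1 animal. Naive and injured rats differ in the injury, the surgery and the vector together, which cannot be told apart. In bulk tissue, fewer cells of a type and less RNA per cell cannot be told apart either.

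A miRNA hairpin is cut by Dicer into a short duplex, and one strand is kept by an Argonaute protein while its partner is mostly degraded. The strand that is kept pairs with messenger RNAs chiefly through its seed (bases 2 to 8), so the arms of one hairpin have different targets. Both arms come from one transcript, so their ratio and their sum are described apart from the levels of each. In mammals miR-361 lies within Chm, which encodes Rab escort protein 1, a protein needed to attach lipids to Rab GTPases.

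The mature sequences, taken from RefSeq (rat assembly GRCr8), are shown 5′ to 3′ because the arms share no seed, with the seed in capitals.
rno-miR-361-5p: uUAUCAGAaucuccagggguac
rno-miR-361-3p: cCCCCAGGugugauucugauucgu
rno-miR-361-5p has 22 bases and rno-miR-361-3p has 24. They lie on the minus strand, at chrX:82438506-82438527 for the 5p arm and chrX:82438466-82438489 for the 3p arm. None of the other mature miRNAs among the 693 names in the RefSeq table had the seed of either arm. None of the other hairpins among the 419 in that table contained the first 18 bases of either arm.

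The hairpin, Mir361, has 70 bases (chrX:82438463-82438532, minus strand) and is shown with the mature arms in capitals, to place them on either side of the loop.
Mir361: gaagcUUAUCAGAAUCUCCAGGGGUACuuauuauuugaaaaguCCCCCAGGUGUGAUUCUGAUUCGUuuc
It lies inside the span of Chm (chrX:82395463-82554249), which is on the same strand. Whether it falls in an exon or an intron was not analysed here. The predicted fold of the hairpin had a minimum free energy of -27.8 kcal/mol, with 15 base pairs between the arms. In that fold 6 of the 7 seed bases of each arm were paired.

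rno-miR-361-3p was the more abundant arm in all 18 libraries, and its level was lower in both injured groups than in naive rats. In CPM (counts per M miRNA counts in the library, scaled by the TMM method), its level in naive DRG was 648 at the lowest, 686 at the median and 788 at the highest, with a mean of 696 ± 52.6 (SD, n = 6). In bPYX+GFP the lowest was 499, the median 565 and the highest 626, with a mean of 558 ± 50.8 (n = 6). In bPYX+NT3 the lowest was 486, the median 554 and the highest 588, with a mean of 548 ± 36.8 (n = 6). Every rat of both injured groups was thus below the lowest naive rat, while the injured groups overlapped.

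The log2 fold change of rno-miR-361-3p was -0.32 ± 0.07 (SE from the edgeR fit) in bPYX+GFP against naive. Against naive it was -0.35 ± 0.07 in bPYX+NT3. The fitted levels were 0.80 and 0.79 times those of naive rats. Levels did not overlap in either comparison, as for 15 of the 373 miRNAs (4.02%) in bPYX+GFP against naive and 5 (1.34%) in bPYX+NT3 against naive. The comparisons share the naive rats and the choice of rno-miR-361-3p used both, so nothing is read from these shares. Among the 251 miRNAs with more than 100 counts in at least 6 libraries, 18 had a larger fold change in size than rno-miR-361-3p in bPYX+GFP against naive, and 16 in bPYX+NT3 against naive. Counting error alone gives a coefficient of variation (CV) of 1.76 to 2.01%, and rats of a group differed by a CV of 7.55% among naive rats, 9.10% with bPYX+GFP and 6.72% with bPYX+NT3. A low spread within groups is favoured by the choice of rno-miR-361-3p from calls, so its CV is not compared with that of other miRNAs. With library size as the only scale, an alternative chosen after seeing the data, the CV of rno-miR-361-3p was 5.52%, 6.92% and 3.60%.

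rno-miR-361-5p was the less abundant arm, and its mean was higher in the injured groups than in naive rats. In naive DRG its level was 137 CPM at the lowest, 160 at the median and 186 at the highest, with a mean of 163 ± 18.8 (n = 6). In bPYX+GFP the lowest was 177, the median 193 and the highest 203, with a mean of 192 ± 8.56 (n = 6). In bPYX+NT3 the lowest was 144, the median 190 and the highest 212, with a mean of 185 ± 22.9 (n = 6). In bPYX+GFP 5 of 6 rats were above the highest naive rat. In bPYX+NT3 4 were, and replicate 4 was below the naive mean.

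The log2 fold change of rno-miR-361-5p was 0.24 ± 0.08 in bPYX+GFP against naive, and 0.18 ± 0.10 in bPYX+NT3 against naive. With each library left out in turn, the latter ranged from 0.14 (without naive replicate 4) to 0.27 (without bPYX+NT3 replicate 4). The groups overlapped in both comparisons. On the TMM scale its CV was 11.6% in naive rats, 4.46% in bPYX+GFP and 12.4% in bPYX+NT3. These values depended on the scaling: with library size as the only scale the CV was 12.7%, 9.71% and 16.8%. The choice of miR-361 also used the calls of this arm, so its CV is not compared with that of other miRNAs. The counting error in bPYX+GFP is a CV of 3.27%.

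**Figure D1:**
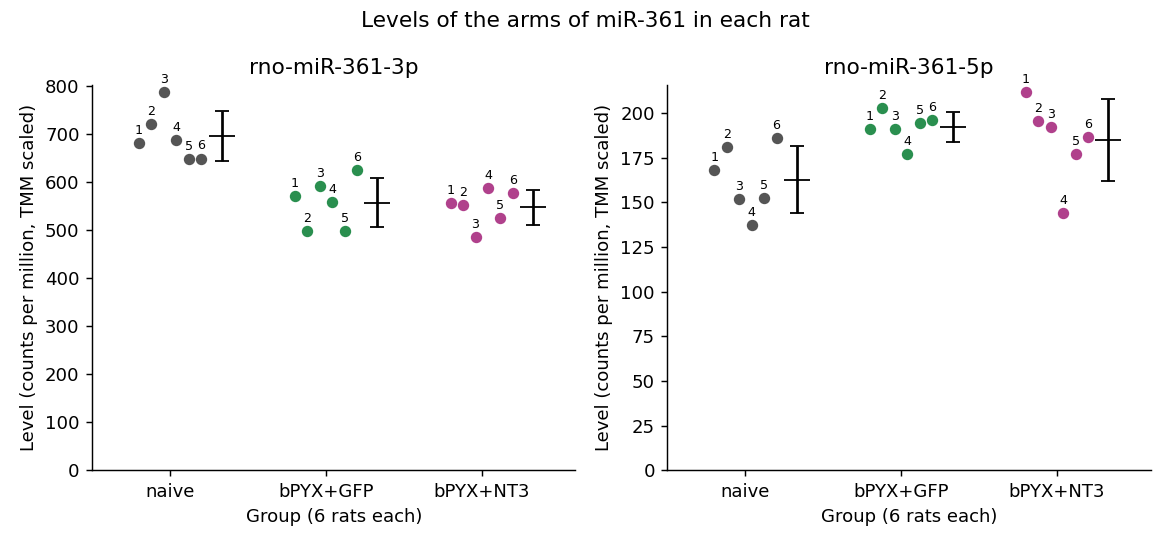
Level of each arm of miR-361 in each rat (vertical axes, CPM after TMM scaling, from 0) by group (horizontal axes). Points are rats, numbered by replicate, and black marks are the mean and SD of 6 rats. All 12 injured rats sit below the lowest naive rat (648) for rno-miR-361-3p, and most injured rats sit above the highest naive rat (186) for rno-miR-361-5p.

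The injured groups overlapped in both arms. The lack of a call between them was known when miR-361 was chosen, so their likeness is described and not tested. The log2 fold change of bPYX+NT3 against bPYX+GFP was -0.01 ± 0.07 for rno-miR-361-3p. For rno-miR-361-5p it was -0.05 ± 0.09. No call for this comparison was made for either arm, where 32 of 373 miRNAs (8.58%) had an unadjusted p under 0.05 and none (0%) were free of overlap. In order of mean level, rno-miR-361-3p ran from naive to bPYX+GFP to bPYX+NT3. The order for rno-miR-361-5p was bPYX+GFP, bPYX+NT3 and naive. In both orders the injured groups were neighbours, and they overlapped. The choice of miR-361 favoured such an order, so nothing is read from it.

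The study's criterion, an unadjusted p under 0.05, was met by both arms in bPYX+GFP against naive, in opposite directions. By edgeR, 79 of 373 miRNAs met it there (21.2%), 40 of them higher (10.7%) and 39 lower (10.5%). In bPYX+NT3 against naive rno-miR-361-3p met it and rno-miR-361-5p did not, beside 51 miRNAs in all (13.7%), 27 higher (7.24%) and 24 lower (6.43%). With the Benjamini-Hochberg adjustment, rno-miR-361-3p was among 9 miRNAs (2.41%) called in bPYX+GFP against naive. That adjusted call held in 12 of 20 alternatives, and the count of 9 ranged from 3 to 20 when a library was left out and was 22 with DESeq2. In bPYX+NT3 against naive it had the smallest p of the 373, and with that adjustment no miRNA was called by edgeR's quasi-likelihood test, where 51 had an unadjusted p under 0.05. After adjustment 1 miRNA was called by edgeR's likelihood ratio test, 1 by the quasi-likelihood test with all 3 groups in the fit and 1 by DESeq2. The choice of miR-361 used these calls, and nothing is read from them.

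Because the arms moved apart, their ratio within a library differed more than either level. This ratio does not depend on scaling between libraries. The 3p arm had 4.33 times the counts of the 5p arm in naive rats, 2.91 times in bPYX+GFP and 3.02 times in bPYX+NT3. On the log2 scale (0.5 added to each count) the ratio in naive rats was 1.80 at the lowest, 2.05 at the median and 2.37 at the highest, with a mean of 2.10 ± 0.22 (SD, n = 6). In bPYX+GFP it was 1.30 at the lowest, 1.61 at the median and 1.67 at the highest, with a mean of 1.53 ± 0.16. In bPYX+NT3 it was 1.34 at the lowest, 1.53 at the median and 2.03 at the highest, with a mean of 1.57 ± 0.25. All rats of bPYX+GFP and 5 of 6 of bPYX+NT3 were below the lowest naive rat. The exception was replicate 4 of bPYX+NT3, which was within the naive range, and the next highest of that group was 1.63.

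The difference of the log2 ratio was -0.57 ± 0.11 (SE from the group SDs) in bPYX+GFP against naive. In bPYX+NT3 against naive it was -0.53 ± 0.13. With each library left out in turn, that value ranged from -0.62 (without bPYX+NT3 replicate 4) to -0.47 (without naive replicate 3). Between the injured groups the difference was 0.04 ± 0.12. In these terms rno-miR-361-5p made up 19.0 ± 2.28% of the counts of both arms in naive rats, 25.7 ± 2.20% in bPYX+GFP and 25.2 ± 3.07% in bPYX+NT3. Replicate 4 of bPYX+NT3 had 567 counts of rno-miR-361-5p among 2877, a share of 19.7% (Wilson 95% interval 18.3 to 21.2%, counting error only). The lowest share in bPYX+GFP was 23.9% (22.5 to 25.3%).

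**Figure D2:**
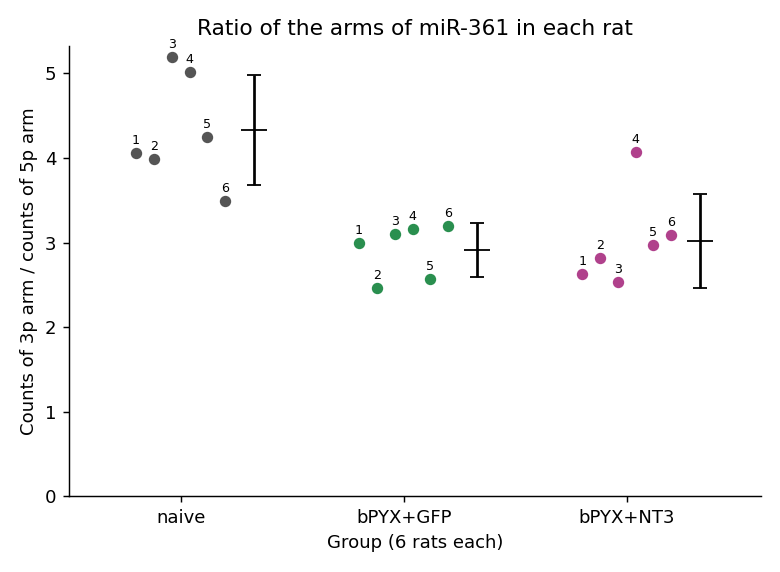
Counts of rno-miR-361-3p divided by counts of rno-miR-361-5p in each rat (vertical axis, no unit, from 0) by group (horizontal axis). Points are rats, numbered by replicate, and black marks are the mean and SD of 6 rats. The mean is 4.33 for naive, 2.91 for bPYX+GFP and 3.02 for bPYX+NT3, and replicate 4 of bPYX+NT3 lies within the naive range.

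The sum of both arms was lower in the injured groups by less than rno-miR-361-3p was. The mean sum was 859 ± 52.1 CPM in naive rats, against 750 ± 49.1 with bPYX+GFP and 732 ± 35.3 with bPYX+NT3 (SD, n = 6 each). The log2 difference was -0.20 ± 0.05 in bPYX+GFP against naive, where the groups overlapped. It was -0.23 ± 0.05 in bPYX+NT3 against naive, without overlap. Between the injured groups it was -0.03 ± 0.05. All 12 injured rats were below the naive mean. The sum is mostly rno-miR-361-3p, and so follows it. Sums were not computed for other precursors, so no share stands beside its lack of overlap, and nothing is read from that.

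The change in ratio of miR-361 was set beside that of the 114 precursors with both arms past the detection filter. In bPYX+GFP against naive 8 precursors differed more in size, with a median of 0.20 over all 114. For bPYX+NT3 against naive, 7 did, with a median of 0.21. The groups were free of overlap in bPYX+GFP against naive for miR-361 and 5 other precursors, 6 of 114 in all (5.26%). Of these only miR-30e exceeded miR-361 in size, at 0.63 ± 0.10, with its 3p arm at 0.46 ± 0.08 and its 5p arm at -0.17 ± 0.08. The log2 ratio was higher than in naive rats in miR-145, miR-221, miR-30a and miR-30e (by 0.46 to 0.63), and lower in miR-3559 (-0.33) and miR-361 (-0.57). No precursor was free of overlap in bPYX+NT3 against naive (0%) or between the injured groups (0%). The choice of miR-361 used the calls of both arms, which favours a large change in ratio. Nothing is therefore read from its place among the precursors.

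Both arms met the unadjusted threshold in opposite directions for miR-361 and miR-455 in bPYX+GFP against naive, 2 of 114 precursors (1.75%). The choice of miR-361 used these calls, so nothing is read from its being 1 of the 2. miR-455 had the reverse pattern, with its 3p arm at 0.23 ± 0.08 and its 5p arm at -0.28 ± 0.11. Such precursors numbered 3 (2.63%) in bPYX+NT3 against naive, let-7g, let-7i and miR-195, without miR-361. These counts were unstable when a library was left out. They ranged from 1 to 6 in bPYX+GFP against naive and from 0 to 4 in bPYX+NT3 against naive. The precursor miR-195 moved in the direction of miR-361 there, with its 3p arm at -0.33 ± 0.12 and its 5p arm at 0.27 ± 0.12.

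**Figure D3:**
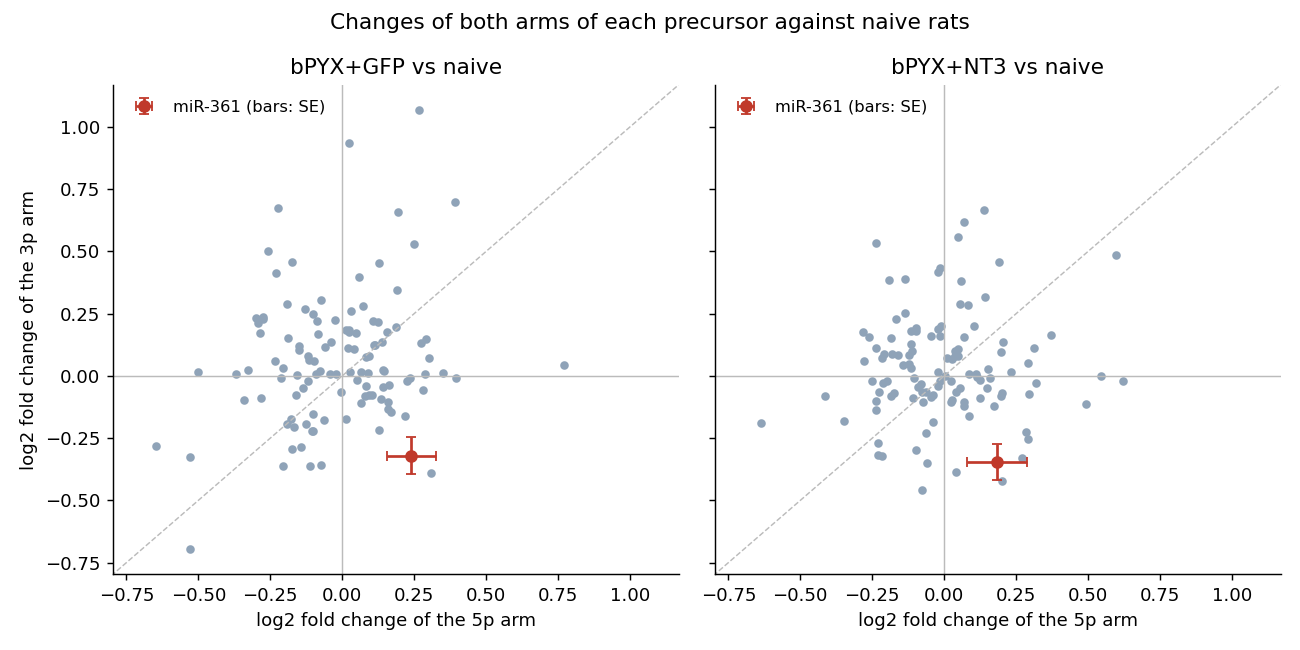
log2 fold change of the 3p arm (vertical axes) against that of the 5p arm (horizontal axes) for 114 precursors, in bPYX+GFP (left) and bPYX+NT3 (right) against naive. Each grey-blue point is a precursor, the red point is miR-361 with SE bars, and the dashed line marks equal change of both arms. miR-361 lies at -0.32 for the 3p arm and 0.24 for the 5p arm on the left, and at -0.35 and 0.18 on the right.

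The arms of miR-361 were less unequal than those of most precursors. Over all 18 libraries its log2 ratio was 1.74, and the median size of that ratio over 114 precursors was 3.56, with 31 precursors more even than miR-361. The 3p arm was the more abundant in 51 of the 114. Strand choice is known to favour arms that begin with U or A, and of the arms of miR-361 the less abundant begins with U and the more abundant with C. Among 103 precursors with both sequences in RefSeq, the more abundant arm began with U in 45 (43.7%), with A in 29 (28.2%) and with C in 21 (20.4%). The less abundant arm began with U in 23 (22.3%), with A in 39 (37.9%) and with C in 29 (28.2%), so A was not the more frequent on the more abundant arm here. In all, 6 had C on the more abundant and U on the less abundant arm, miR-361 among them. The kit ligates adapters at rates that vary with the sequence of the miRNA, so the ratio of counts is not a ratio of molecules, while its change between groups compares the same sequences.

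Within groups the arms had no detectable relation. This relation was tested because the choice of miR-361 rested on calls between groups for each arm, which use the spread within groups but not how the arms vary together there. Over 6 rats each, Pearson's r of the log2 CPM of both arms was -0.19 in naive (exact permutation p = 0.722, two-sided), -0.29 in bPYX+GFP (exact p = 0.619) and -0.39 in bPYX+NT3 (exact p = 0.422), with an adjusted p of 0.722 for each of the 3. Spearman's rho was -0.31 (exact p = 0.564), -0.09 (exact p = 0.919) and -0.31 (exact p = 0.564), with adjusted exact p of 0.846, 0.919 and 0.846. Without the 2 rats farthest from the median of rno-miR-361-3p, r was -0.15, 0.82 and 0.38, and with library size alone as the scale it was -0.19, 0.10 and 0.56. With 6 rats a group, a relation of moderate size would not be seen.

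Across all 18 libraries, as a description, Pearson's r between the arms was -0.59, and -0.26 once each group's mean was removed. The median r of rno-miR-361-3p with the 372 other miRNAs was 0.03. The libraries share groups, depth and scaling, so likeness of pattern across them says nothing of shared control.

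The 5 miRNAs whose pattern was most like that of rno-miR-361-3p over 18 libraries were miR-381-3p (r = 0.848), miR-370-3p (0.847), miR-455-5p (0.847), miR-30d-5p (0.812) and miR-667-5p (0.798). All were at a lower mean in both injured groups than in naive rats. miR-370-3p averaged 1940 ± 252 CPM in naive rats, 1508 ± 146 with bPYX+GFP and 1484 ± 244 with bPYX+NT3, and had log2 fold changes of -0.36 ± 0.09 and -0.39 ± 0.11 against naive. miR-381-3p had -0.35 ± 0.07 and -0.22 ± 0.08. With library size as the only scale, chosen as an alternative after seeing the data, the same 5 were the closest, with r of 0.709 (miR-30d-5p) to 0.786 (miR-381-3p). On the TMM scale, the miRNAs most unlike rno-miR-361-3p were miR-26b-5p (-0.771), miR-146a-3p (-0.760) and miR-195-5p (-0.741). With library size as the only scale these had r of -0.564, -0.556 and -0.423 and ranked 360, 357 and 333 of 372, so they were no longer the most unlike. Among them miR-146a-3p was at a low level, with means of 2.24 CPM in naive rats, 3.59 in bPYX+GFP and 3.54 in bPYX+NT3.

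For rno-miR-361-5p the closest were miR-339-5p (r = 0.746), miR-369-3p (0.737), miR-496-3p (0.714), miR-379-3p (0.708) and miR-374-5p (0.702). miR-379-3p went from 37.6 ± 6.11 CPM in naive to 71.9 ± 12.9 in bPYX+GFP and 50.7 ± 13.4 in bPYX+NT3, and miR-496-3p from 29.7 ± 3.94 to 40.7 ± 3.55 and 39.5 ± 6.90. The most unlike were miR-370-3p (-0.767), miR-381-3p (-0.727) and miR-532-5p (-0.693), of which the first pair were also the closest to rno-miR-361-3p. With library size as the only scale, r was 0.670 for miR-379-3p, which then ranked 34 of 372, and 0.797 to 0.856 for the other 4 of the closest. On that scale miR-370-3p was still at -0.712 (rank 371), while miR-381-3p was at -0.444 (rank 359) and miR-532-5p at -0.313 (rank 340). In GRCr8, 6 of the 10 closest miRNAs lie within 225 kb of chromosome 6 (6:134354538-134579527, bounds set by these miRNAs themselves): miR-370-3p, miR-381-3p and miR-667-5p, alike to the 3p arm, and miR-369-3p, miR-379-3p and miR-496-3p, alike to the 5p arm. Of the 350 tested miRNAs matched to RefSeq, 49 (14%) lie in that stretch, and since its bounds came from the miRNAs counted, nothing is read from their number. The 6 belong to the Dlk1-Dio3 region, an imprinted domain that holds a large miRNA cluster expressed in the nervous system.

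**Figure D4:**
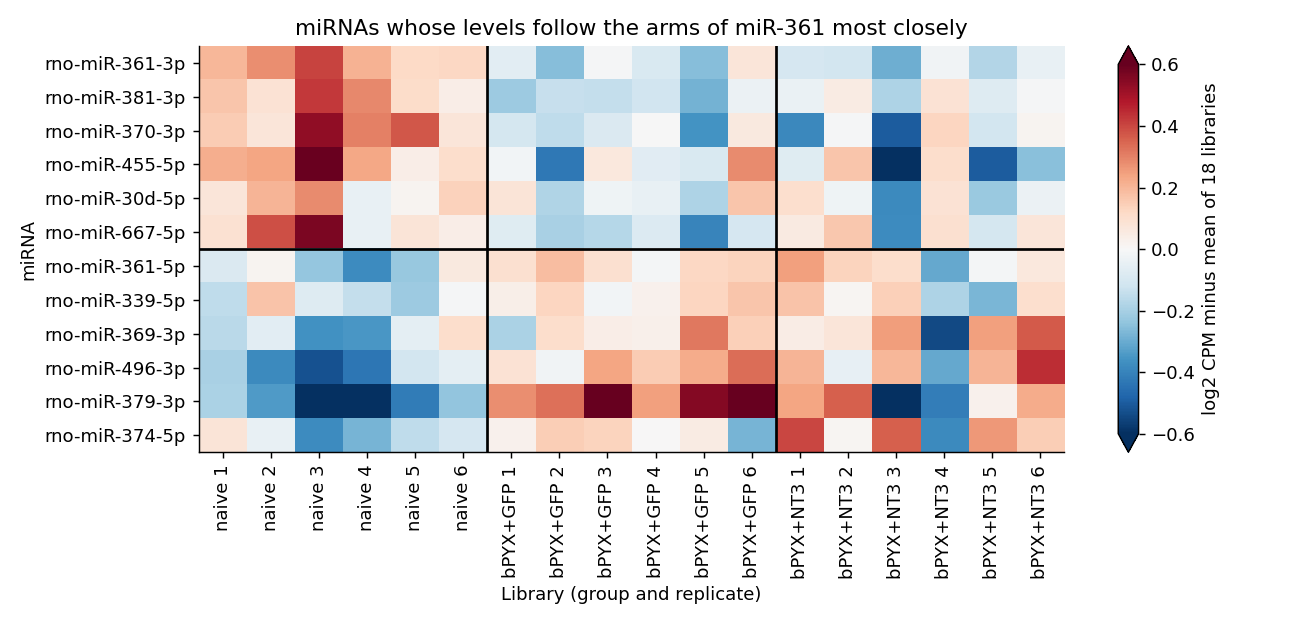
log2 CPM minus the mean of 18 libraries (colour scale, shown from -0.6 to 0.6 and saturated beyond) for each arm of miR-361 and the 5 miRNAs most like it (rows) in each library (columns, by group and replicate). Upper rows (rno-miR-361-3p first) are mostly above their mean in naive and below it after injury, and lower rows (rno-miR-361-5p first) are mostly the reverse, with replicate 4 of bPYX+NT3 below the mean in all 6 lower rows.

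The gene lies on the X chromosome, and the other X-linked miRNAs were called in both directions against naive. Of the 373 miRNAs 350 were matched to RefSeq, and 40 had every copy on that chromosome. Among the 38 other than miR-361, at an unadjusted p under 0.05, 6 were higher (15.8%) and 6 lower (15.8%) in bPYX+GFP against naive, beside 10.7% and 10.5% over all 373, with a median log2 fold change of -0.00 beside 0.00. In bPYX+NT3 against naive 3 were higher (7.89%) and 6 lower (15.8%), beside 7.24% and 6.43%, with a median of 0.02 beside -0.01. Between the injured groups 1 was higher (2.63%) and 2 were lower (5.26%), beside 5.09% and 3.49%. Those lower in both comparisons with naive were miR-20b-3p (-0.36 ± 0.11 and -0.32 ± 0.14), miR-363-3p (-0.28 ± 0.09 and -0.19 ± 0.09), miR-363-5p (-0.65 ± 0.24 and -0.64 ± 0.20) and miR-676 (-0.30 ± 0.09 and -0.35 ± 0.11). Of these, miR-363-5p was at a low level, with means of 5.83 CPM in naive rats, 3.69 in bPYX+GFP and 3.72 in bPYX+NT3. The one that was higher in both comparisons with naive was miR-672-5p (0.27 ± 0.10 and 0.20 ± 0.09). miR-20b and miR-363 belong to the X-linked miR-106a-363 cluster.

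The libraries held 3.88 to 6.92 M miRNA counts (median 4.55), of which rno-miR-361-3p had 2243 to 3734 and rno-miR-361-5p 567 to 1205. Each library had a median Spearman correlation of 0.985 to 0.993 with the others. The tissue was checked by marker miRNAs, of which some were at 0 in every library beside an abundant partner (miR-126a-5p at 0, with miR-126a-3p at 19521 to 29100 CPM), so a 0 in this table is not read as absence. Of the sensory neuron markers, miR-182 and miR-96-5p together had 23640 to 33099 CPM and miR-183-5p was at 0 in every library. 1 of the 2 tested was higher in each comparison with naive. Over all 373 miRNAs, 10.7% were higher in bPYX+GFP and 7.24% in bPYX+NT3 against naive, and nothing is read from 1 marker. The sums of the sensory neuron markers overlapped between groups. The glial markers miR-338-3p and miR-219a-2-3p were at 0 in every library, and that list summed to at most 1.53 CPM. General neuron markers summed to 5098 to 10082 CPM. Muscle markers summed to 71.5 to 335 CPM, with miR-1-3p and miR-133a-3p at 0, and blood markers to 314 to 1400 CPM. Of the fibroblast markers, which summed to 1386 to 2459 CPM, 1 of 3 was lower in bPYX+GFP against naive. Over all 373 miRNAs 10.5% were lower there, and nothing is read from this marker either. No list had sums free of overlap between groups. The part of these in the levels of miR-361 was not tested.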

How the data were processed

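Small RNA libraries were prepared per rat from pooled C6 to C8 DRG with a NEBNext kit, for which no molecular identifiers are stated. Per the labels and methods, the authors demultiplexed with bcl2fastq 1.8.4, trimmed adapters, aligned with Bowtie2 to Rnor_5.0 and counted with HTSeq-count. The other versions and the miRNA annotation are not given in the sources used here. The deposited values are raw read counts for 753 miRNAs in 18 libraries, and 5 totals of unassigned reads, not used in library sizes or tests. Counts for miRNAs took 32.4 to 38.2% of all entries, and 28.0 to 35.1% had too low an alignment quality. PCR copies are not independent molecules. In each of the 45 pairs of libraries within a group, counts differed beyond sampling noise (chi-square over degrees of freedom 37.4 or more), so none was a copy.

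miRNAs with more than 10 counts in at least 6 libraries (373) were fitted with edgeR 4.0.16 in R 4.3.3 (TMM, quasi-likelihood F test, Benjamini-Hochberg adjustment) on the 12 libraries of each comparison. A call is an unadjusted p under 0.05, as in the study, unless said to be adjusted. The fit was tested on simulated data. The arm ratio was log2 of the counts with 0.5 added. Folding used RNAfold 2.7.2. Exact tests took all 720 pairings. DESeq2 1.42.0, other scalings and filters, a likelihood ratio test, all 3 groups in one fit, a replicate block and leaving out each library were alternatives. The study excluded one rat after its quality control. By the rat numbers in the table's header it is naive replicate 1, which was retained here. Sequences and positions are from RefSeq GRCr8, not from the build of the alignment.

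The members and lists were chosen with earlier results of these data known. Named miRNAs were both arms, the 5 most and 3 least correlated with each, precursors whose ratio changed more than that of miR-361 without overlap, and X-linked miRNAs called in both comparisons with naive. Other precursors without overlap or with opposite calls were named after their values were seen.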

Additional observations from a re-analysis of the deposited data

How the results depend on the processing

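Over all alternatives (60 fits for each arm, 42 for the arm ratio and 39 for the sum), the differences of miR-361 moved by less than 1 SD between rats. rno-miR-361-3p kept its call against naive in 20 of 20 alternatives in each comparison, with an adjusted p under 0.05 in 12 of 20 in bPYX+GFP and 4 of 20 in bPYX+NT3. rno-miR-361-5p kept its call in 20 of 20 in bPYX+GFP, and in bPYX+NT3 it became called without naive replicate 6 (log2 fold change 0.24) or bPYX+NT3 replicate 4 (0.27). With library size alone as the scale, all 12 injured rats were still below the lowest naive rat for rno-miR-361-3p. Without naive replicate 1 the log2 fold changes were -0.33 and -0.35 for rno-miR-361-3p and 0.25 and 0.19 for rno-miR-361-5p.

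Counts over all miRNAs moved more, and the cause was not tested. With DESeq2, 22 miRNAs were called after adjustment in bPYX+GFP against naive, and 1 in bPYX+NT3 against naive, as with the likelihood ratio test (1) and all 3 groups in the fit (1). Precursors with opposite arm calls were 4 in bPYX+GFP against naive with a filter of 100 counts and 1 in bPYX+NT3 against naive with library size only. With library size only, 3 miRNAs were free of overlap in bPYX+NT3 against naive and 3 in bPYX+NT3 against bPYX+GFP. With no filter, 54 miRNAs were called between the injured groups. The within-group correlation of the arms turned positive with library size only (0.10 in bPYX+GFP, 0.56 in bPYX+NT3) and without the 2 farthest rats (0.82 and 0.38).

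Leaving out each library gave, in bPYX+GFP against naive, 3 (without naive replicate 4 or bPYX+GFP replicate 1) to 20 (without naive replicate 2) adjusted calls and 1 (without naive replicate 3 or bPYX+GFP replicate 2) to 6 (without naive replicate 4) precursors with opposite calls. In bPYX+NT3 against naive it gave 32 (without bPYX+NT3 replicate 3) to 68 unadjusted calls, 0 to 4 adjusted calls, 0 to 4 precursors with opposite calls, 5 to 10 miRNAs free of overlap and 0 to 4 precursors free of overlap, each highest without bPYX+NT3 replicate 4. Between the injured groups it gave 24 to 54 unadjusted calls (highest without bPYX+NT3 replicate 4), 0 to 4 miRNAs and 0 to 3 precursors free of overlap.

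Replicate numbers were shared between groups, and the labels do not say whether they mark a batch. Deviations of same-numbered libraries correlated by -0.38 to 0.37, over 0.1 in 1, 2 and 3 of 6 pairs. In each comparison 2 of 6 libraries correlated best with their own number. With 6 pairs a comparison, these values cannot tell whether the numbers mark a batch. With a replicate block the log2 fold changes of rno-miR-361-3p were -0.32 and -0.35 against naive and those of rno-miR-361-5p 0.25 and 0.18. The block gave 76, 48 and 39 unadjusted calls, and 4 and 1 precursors with opposite calls against naive. The counting CV was 1.76 to 2.01% for rno-miR-361-3p and 3.27 to 3.63% for rno-miR-361-5p, beside a lowest CV between rats of 6.72% and 4.46% with TMM scaling, and 3.60% and 9.71% with library size only.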
